A study of Macaca mulatta with 10 samples.

Results

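ZFP36 and 9 genes of the immediate early class (FOS, FOSB, JUN, JUNB, EGR1, IER2, ATF3, DUSP1 and MYC) were followed in liver of rhesus macaques after brain death. A probe set, the group of short oligonucleotides that measures 1 transcript, was taken when the platform annotation paired it with exactly 1 of these symbols. This gave 10 probe sets of 52865 on the array, which covered 7 of the 10 genes. ATF3 had 3 probe sets, DUSP1 had 2, and ZFP36, FOS, JUNB, IER2 and MYC had 1 each. FOSB, JUN and EGR1 are not analysed here.

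Livers of 5 brain-dead macaques (Macaca mulatta) were compared with livers of 5 living donors as controls, with 1 array of total RNA per animal. No strain, genotype or transgene is given in the labels. To induce brain death, a balloon catheter placed outside the dura was slowly filled, and blood pressure was afterwards maintained by fluid together with vasopressin and/or dopamine. The sample labels give 6 h of brain death, whereas the design text of the series gives 5 h. Controls were sedated, anaesthetised and ventilated for 1 h, so time under ventilation and vasoactive drugs cannot be told apart from brain death. All livers were flushed in the abdomen with preservation solution at recovery. Controls were 3 females (16, 10 and 4 years) and 2 males (20 and 10 years). Brain-dead animals were 2 females (7 and 18 years) and 3 males, of which 2 were 7 years old and animal 3 has no age in the labels.

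Immediate early genes are transcribed within minutes of a stimulus without new protein synthesis, and their mRNAs are short-lived. FOS, JUNB and ATF3 encode leucine zipper proteins of the AP-1 and ATF families, IER2 a nuclear protein and MYC a transcription factor of growth. DUSP1 encodes a phosphatase that switches off p38 and JNK kinases. ZFP36 (tristetraprolin) encodes a zinc finger protein that binds AU-rich elements of cytokine mRNAs and recruits the deadenylation machinery, which shortens their life. In liver these genes are known to respond to surgery, ischaemia, growth factors and cytokines.

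Array medians lay between 175 and 227 signal units and every array had a 2% trimmed mean of 1000. The ratio of the 3' to the 5' control probe set of actin, a sign of RNA integrity, was 1.24 to 1.41 in controls and 1.15 to 1.38 in brain-dead animals, and that of GAPDH was 0.962 to 1.12 and 0.85 to 1.25. Of 41 marker genes of liver cell types 23 were tested, and none rose or fell on its representative probe set, the one with the highest mean (limma with Benjamini-Hochberg; 4 had an unadjusted p under 0.05). Of the other probe sets of these genes, 1 of C1QA (macrophages) fell and 1 of SERPINA1 (hepatocytes) rose. The hepatocyte markers APOA1, SERPINA1 and FGB were high in every liver on their representative probe sets. They carried the summed signals of 4 hepatocyte probe sets, which were 329613 to 427727 in controls and 301012 to 366112 after brain death. The remaining marker, APOB, was not high, at 225 to 441 in controls and 169 to 383 after brain death. It lay below its array's median in brain-dead animals 3 and 5. The second principal component set both animals numbered 1 apart (69.6 and 72.1, against -36.1 to 26.55 in the rest), and results that depend on them are also given without them.

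ZFP36 was lower in every brain-dead liver than in any control liver, and it was the gene among the 7 that passed the test. The signal of its probe set (MmugDNA.926.1.S1_at), on the linear scale of MAS5, was 2231, 3479, 3369, 624 and 1590 in controls 1 to 5. In brain-dead animals 1 to 5 it was 409, 453, 594, 412 and 323. The 5 brain-dead values lie close together, whereas the controls range 5.58-fold and control 4 sits just above the highest brain-dead animal. The means were 2258 ± 1209 in controls and 438 ± 99.0 in brain-dead animals (SD, n = 5), a 4.46-fold lower level by the log2 means. ZFP36 fell by 2.16 ± 0.40 on the log2 scale (SE, n = 5 animals per group, limma with Benjamini-Hochberg, adjusted p = 0.0110), with a 95% confidence interval from -3.03 to -1.29. Its raw p ranked 282nd of 26653 probe sets tested. The two-sided exact permutation test gave p = 0.00794, the smallest that 5 against 5 animals allow.

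The call of ZFP36 held when any single animal was left out, with adjusted p between 0.000869 without control 4 and 0.0334 without control 2 (limma, Benjamini-Hochberg). It ended without both animals numbered 1, where the change was -2.08 and the adjusted p = 0.0512 (limma, Benjamini-Hochberg). In whole tissue, fewer cells of a type and less RNA per cell cannot be told apart. Endothelial markers (PECAM1, VWF, CDH5, STAB2 and CLEC4G, 5 of 5 tested, none at 0) overlapped between the groups but reached higher in controls, where their summed signal was 12041 to 24424 against 10051 to 16841 after brain death. Control 4, lowest of the controls in ZFP36, was also the lowest in that sum. None of the 5 passed the test (2 had an unadjusted p under 0.05), their median log2 change was -0.69 with CDH5 at 0.042, and their part in the result of ZFP36 was not tested. Summed Kupffer cell markers overlapped too, at 27213 to 46979 in controls and 19646 to 41654 after brain death. A second probe set of the Kupffer marker C1QA (MmugDNA.2736.1.S1_at) fell by 1.31 ± 0.35 log2 units (limma with Benjamini-Hochberg, adjusted p = 0.0444, groups overlapping), while its representative had -0.33 ± 0.27. That second probe set was picked with its values already known. The other Kupffer markers went in both directions on their representative probe sets. MARCO had 0.51 ± 0.30, against -0.44 ± 0.27 for CD68, -0.45 ± 0.37 for VSIG4 and -0.36 ± 0.32 for CSF1R. None of these passed (limma, Benjamini-Hochberg). The part of Kupffer markers in the result of ZFP36 was not tested.

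Inside the control group the 3 females had ZFP36 signals of 2231 to 3479 and the 2 males 624 and 1590. After brain death the females were at 409 and 453 and the males at 323 to 594. The difference of the change between males and females was 1.57 on the log2 scale and did not pass over all probe sets (limma, interaction of group with sex, unadjusted p = 0.0218, Benjamini-Hochberg adjusted p = 0.9998). With 2 or 3 animals of a sex in each group, the test cannot decide whether the sexes differ. The first DUSP1 probe set, described further on, had a like difference of 1.49 (same test, unadjusted p = 0.0192, adjusted p = 0.9998), with 13229 and 21591 in brain-dead females and 29649 to 44203 in brain-dead males. With sex in the model, ZFP36 changed by -2.0 (limma with Benjamini-Hochberg, adjusted p = 0.00975), and with sex and age by -2.34 (0.00626, the animal without an age left out).

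**Figure D1:**
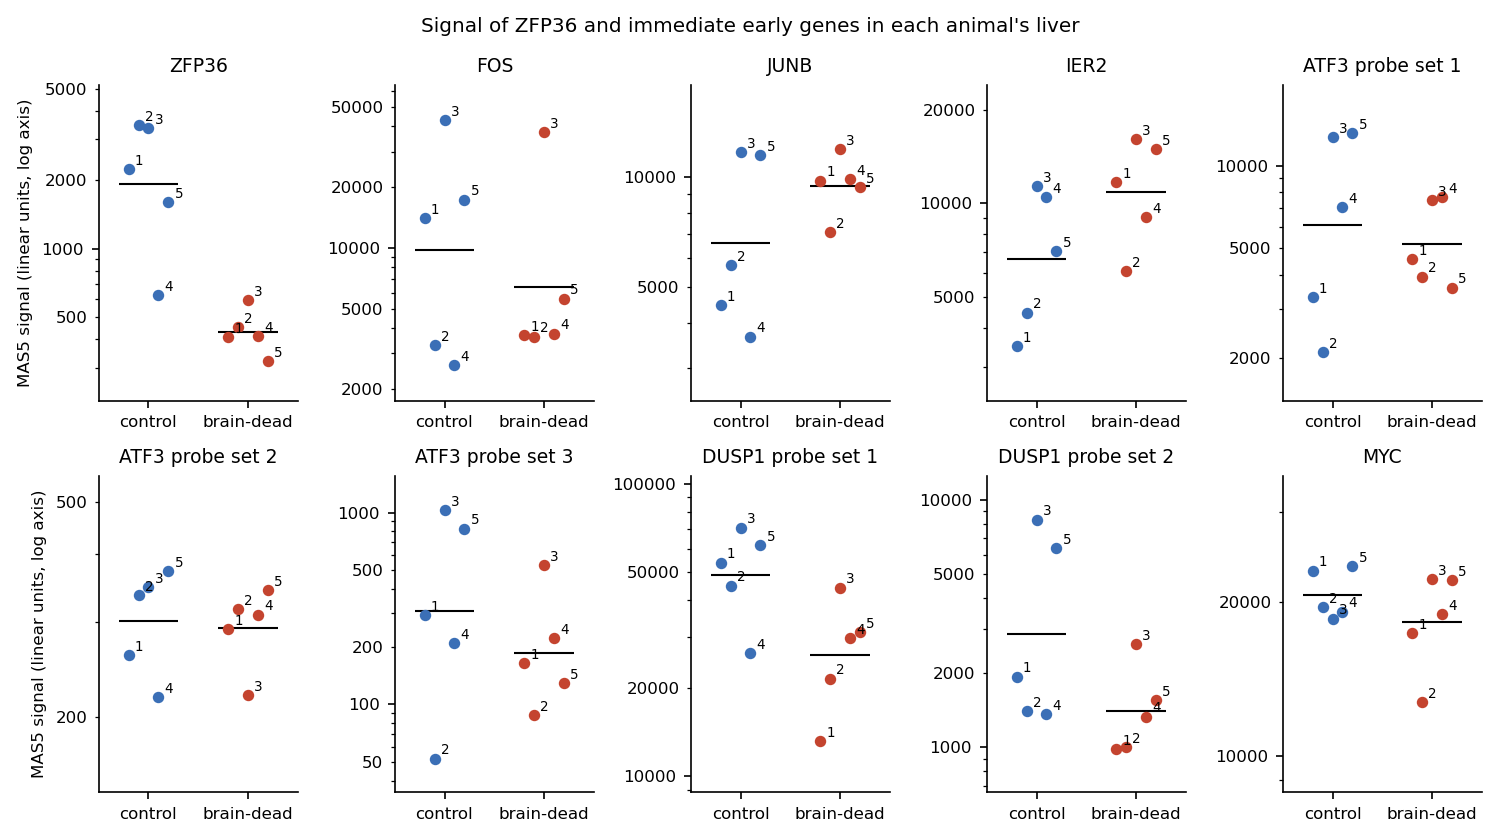
MAS5 signal of each probe set (log axis) in 5 control and 5 brain-dead livers. Points are animals with their replicate number and bars are means of log2 signal; ATF3 and DUSP1 probe sets are numbered from higher to lower mean. ZFP36 separates the groups (controls 624 to 3479, brain-dead 323 to 594), while each of the other 9 probe sets overlaps.

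Of the 10 probe sets, all tested, 1 was called at an adjusted p under 0.05 (limma, Benjamini-Hochberg), where 6.10% of all probe sets tested were called, 2.72% as higher and 3.39% as lower after brain death. The same probe set, ZFP36, was the 1 of 10 whose groups did not overlap, where 6.93% of all probe sets did not overlap and 3.60% did so with brain-dead animals lower. At gene level 1 of 7 passed, where 6.78% of genes passed. With a single call among so few, the share says nothing about the genes as a class. Over the 10 probe sets 2 had a change above 0 and 8 below, with a median log2 change of -0.42 against -0.0027 over all probe sets tested. Several of these probe sets measure the same gene. By gene, with 1 probe set each, 2 of 7 were above 0 and 5 below, with a median of -0.23. That median ran from -0.61 to -0.085 when single animals were left out.

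Among the AP-1 subunits, FOS differed more between animals of a group than between the groups. Its signal (MmugDNA.38565.1.S1_at) was 14038.5, 3299, 43009, 2616 and 17350 in controls 1 to 5. In brain-dead animals 1 to 5 it was 3682, 3630, 37631, 3763 and 5607. Brain-dead animal 3 was nearly as high as control 3, and controls 2 and 4 were below every brain-dead animal. The log2 change was -0.62 ± 0.79 (SE, n = 5, limma with Benjamini-Hochberg, adjusted p = 0.681), and its 95% confidence interval ran from -2.32 to 1.08, so falls and rises of 2-fold both lie inside it. The value hung on single animals, with -0.085 without control 3, -1.01 without control 2, -1.09 without control 4 and -1.26 without brain-dead animal 3. It was -0.29 when both animals numbered 1 were left out, and adjusting for sex and age gave -1.51. None of these passed the test.

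JUNB, which forms AP-1 dimers with FOS proteins, was spread in controls and even after brain death. Its signal (MmugDNA.21723.1.S1_at) was 4468, 5758, 11748, 3658 and 11512 in controls 1 to 5 and 9791, 7085, 11975, 9893 and 9398 in brain-dead animals 1 to 5. Controls 3 and 5 reached the brain-dead level, and controls 1, 2 and 4 lay below every brain-dead animal. The log2 change of 0.52 ± 0.33 missed the threshold (limma with Benjamini-Hochberg, adjusted p = 0.361), with a 95% confidence interval from -0.18 to 1.22.

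IER2 had the most positive change of the 7 genes, though it did not pass either. The signal of its probe set (MmugDNA.26855.1.S1_at) was 3492, 4466, 11344, 10502 and 7035 in controls 1 to 5. In brain-dead animals it was 11742.5, 6065, 16043, 9068 and 14946.5. Brain-dead animals 1, 3 and 5 exceeded every control, while 2 and 4 lay within the control range. The log2 change was 0.71 ± 0.36 (limma with Benjamini-Hochberg, adjusted p = 0.253, 95% confidence interval -0.067 to 1.49).

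ATF3, a stress-induced factor of the ATF and CREB family, gave no change past the test on any of its 3 probe sets. On the first (MmugDNA.11328.1.S1_at) the signal was 3333, 2092, 12687, 7065 and 13132 in controls 1 to 5 and 4572, 3947, 7484, 7677 and 3600 in brain-dead animals. The brain-dead animals lay inside the control range. The log2 change was -0.23 ± 0.47 (limma with Benjamini-Hochberg, adjusted p = 0.816), and it was 0.039 without control 3 and 0.051 without control 5. The third probe set (MmugDNA.43373.1.S1_s_at), whose suffix marks probes shared between transcripts, was dimmer and lay above its array's median on 6 of 10 arrays. It put controls 3 and 5 (1034 and 825) and brain-dead animal 3 (534) highest, and its change was -0.72 ± 0.72 (limma with Benjamini-Hochberg, adjusted p = 0.586). The second (MmugDNA.31246.1.S1_at) was nearly flat, at 218 to 372 in controls and 219 to 343 after brain death, with a change of -0.041 ± 0.245 (0.943) that turned to 0.010 with quantile normalization and 0.027 with median centring.

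DUSP1 was lower on average after brain death on both probe sets, without passing the test on either. On the first (MmuSTS.4085.1.S1_at) the signal was 53795, 44873, 70861, 26414 and 61721.5 in controls 1 to 5. After brain death it was 13229, 21591, 44203, 29649 and 31144. Brain-dead animals 1 and 2 lay below every control. Control 4 lay below brain-dead animals 3, 4 and 5, and the other controls lay above every brain-dead animal. The log2 change was -0.92 ± 0.33 (limma with Benjamini-Hochberg, adjusted p = 0.111), with a 95% confidence interval from -1.62 to -0.21. The exact permutation test gave p = 0.0476, not adjusted, and in limma the gene passed without control 4 (change -1.14, Benjamini-Hochberg adjusted p = 0.0399). Without both animals numbered 1 the change was -0.64.

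The second probe set of DUSP1 (MmugDNA.24043.1.S1_at) read 1928, 1399, 8306, 1365 and 6374.5 in controls 1 to 5. In brain-dead animals it read 985, 1003, 2601, 1329 and 1545. Controls 3 and 5 were the highest animals, as on the first probe set, and the other controls lay inside the brain-dead range. Its change was -1.04 ± 0.50 (limma with Benjamini-Hochberg, adjusted p = 0.228), -0.66 without control 3, and -1.54 after adjusting for sex and age.

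MYC was the steadiest of the genes. Its signal (MmuSTS.999.1.S1_at) was 23094, 19595, 18596, 19200 and 23574 in controls 1 to 5 and 17433, 12745.5, 22188, 18950 and 22142 in brain-dead animals. Only brain-dead animals 1 and 2 were below the lowest control. The log2 change was -0.18 ± 0.20 (limma with Benjamini-Hochberg, adjusted p = 0.630), and the 95% confidence interval from -0.60 to 0.25 leaves out a change of 2-fold in either direction.

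**Figure D2:**
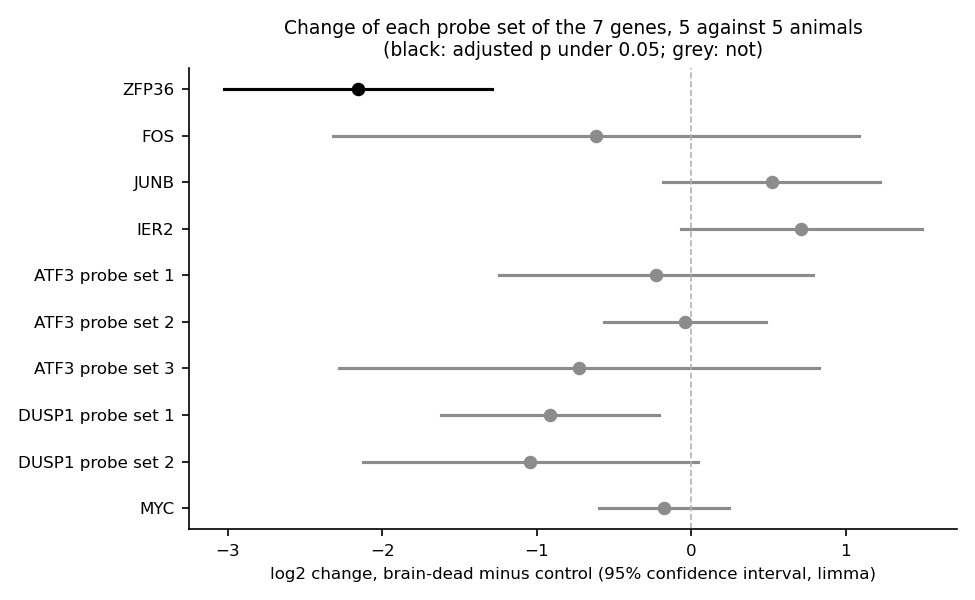
Log2 change of each probe set, brain-dead minus control, with its 95% confidence interval from limma (5 animals per group; black passes an adjusted p under 0.05, grey does not). ZFP36 at -2.16 is the one in black, and the intervals of FOS and of ATF3 probe set 3 are the widest.

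The spread between animals of a group was wide for most of these genes. The pooled SD of log2 signal inside the groups was 1.58 for FOS, the 99.2nd percentile of all probe sets tested. It was 1.41 for ATF3 probe set 3 (98.8), 0.97 for DUSP1 probe set 2 (94.9) and 0.91 for ATF3 probe set 1 (93.4). Thus 4 of the 10 lay above the 90th percentile. ZFP36 followed with 0.75 (87.5), IER2 with 0.67 (81.7), DUSP1 probe set 1 with 0.61 (75.8) and JUNB with 0.58 (73.1). ATF3 probe set 2 (0.29, percentile 14.3) and MYC (0.26, percentile 9.01) were among the quiet ones. The median over the 10 was 0.71, against 0.447 over all probe sets tested.

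Controls were the more variable group for 8 of the 10 probe sets, where 51.6% of all probe sets tested had the larger SD in controls. This is a description without a test. The 3 probe sets of ATF3 and the 2 of DUSP1 were read on the same animals and do not count as separate genes. The SD of log2 signal of ZFP36 was 1.02 in controls and 0.32 after brain death, that of JUNB 0.78 and 0.27, and that of ATF3 probe set 1 was 1.18 and 0.52. Highest over lowest signal of FOS was 16.4-fold among controls and 10.4-fold among brain-dead animals. DUSP1 probe set 1 (0.55 and 0.65) and MYC (0.16 and 0.33) ran the other way.

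**Figure D3:**
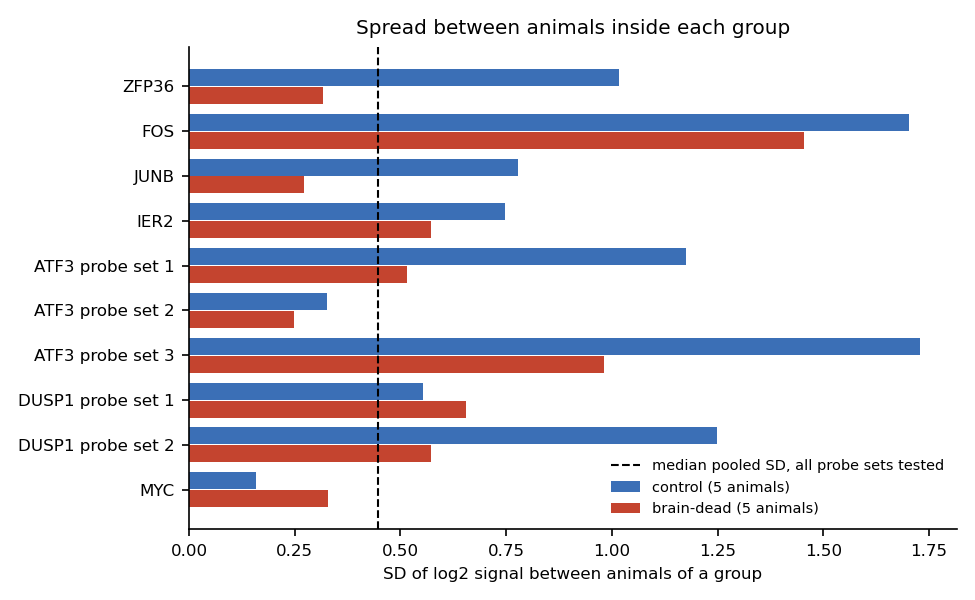
SD of log2 signal between the 5 control (blue) and the 5 brain-dead animals (red) for each probe set; the dashed line is the median pooled SD of all probe sets tested, 0.447. FOS and ATF3 probe set 3 reach 1.70 and 1.73 in controls, and the blue bar is longer in 8 of 10.

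The same few animals carried the high values of several genes. With 1 probe set per gene (ATF3 and DUSP1 by their first), controls 3 and 5 were each among the 3 highest of 10 animals for 5 of 7 genes, and brain-dead animal 3 for 4 of 7. Controls 3 and 5 held the top places for DUSP1, and both were in the top 3 for ATF3, FOS and JUNB. Brain-dead animal 3 was second for FOS and first for JUNB and IER2. At the other end, control 2 and brain-dead animal 2 were each among the 3 lowest for 4 of 7 genes. For ZFP36 the highest signal was in control 2, followed by control 3, and brain-dead animal 3 was the highest of its group. Control 3 was a female of 4 years and control 5 a male of 10 years; brain-dead animal 3 is the one without a labelled age.

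**Figure D4:**
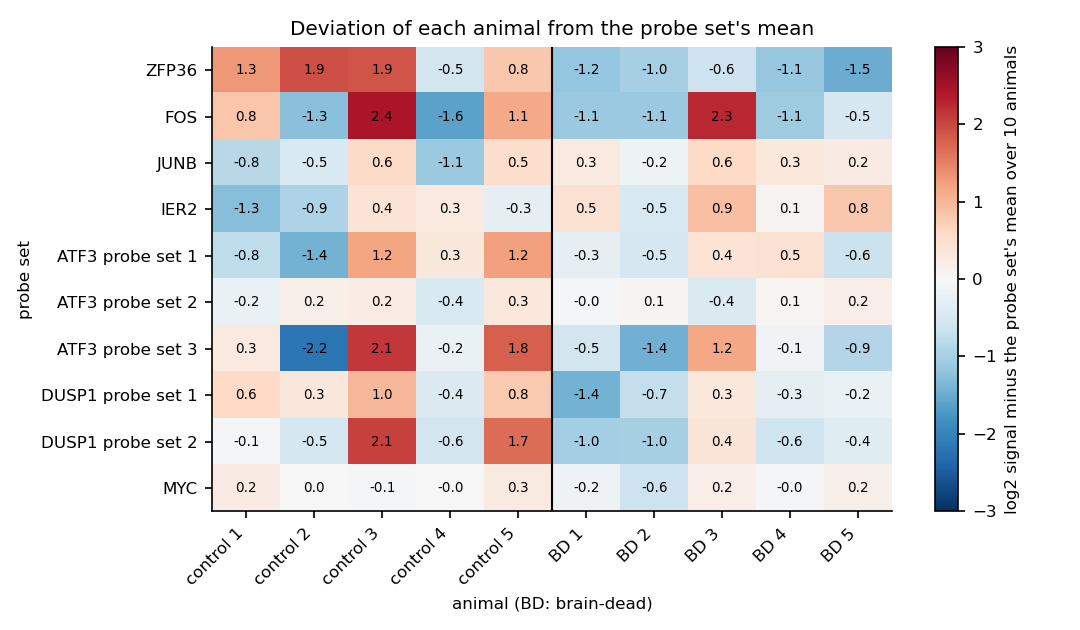
Log2 signal of each animal minus the mean of the probe set over the 10 animals (colour and number, in log2 units; BD is brain-dead, the line separates the groups). Control 3, control 5 and brain-dead animal 3 are high for FOS, JUNB, ATF3 probe sets 1 and 3 and DUSP1, while ZFP36 is negative in the 5 brain-dead animals and in control 4.

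Relatives of the AP-1 subunits did not pass the test as single genes. Of 8 AP-1 relatives tested none passed (limma, Benjamini-Hochberg; 3 had an unadjusted p under 0.05), 6 had a change above 0, and the median log2 change was 0.44 against -0.0070 over all 9826 genes tested. The largest evidence was for MAFF, a small MAF protein that pairs with other leucine zippers (1.00 ± 0.31, adjusted p = 0.0773), and ATF4, the effector of the integrated stress response (0.67 ± 0.26, 0.138). The rule for naming genes did not cover FOSL2 and JUND, which were added after their values were seen. FOSL2, a FOS relative, had a change of 0.40 ± 0.23 and JUND one of -0.15 ± 0.40. A dimmer FOSL2 probe set (MmugDNA.30728.1.S1_at) had 1.74 ± 0.84 with overlapping groups and did not pass (limma with Benjamini-Hochberg, adjusted p = 0.232). Without brain-dead animal 1, 1 of the relatives passed, BATF3, named after its values were seen.

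Of 20 other immediate early genes tested none passed on its representative probe set (limma, Benjamini-Hochberg; 5 had an unadjusted p under 0.05). A change above 0 was seen in 10 and below 0 in 10, and the median of 0.075 turned to -0.060 without control 2. The orphan nuclear receptor NR4A2 was lowest at -2.35 ± 0.72 (adjusted p = 0.0691), and SGK1, a kinase induced by serum and glucocorticoids, had 0.80 ± 0.29 (0.120). The signal of NR4A2 (MmugDNA.3701.1.S1_at) was 14266, 5051, 10387.5, 1475 and 13872 in controls 1 to 5 and 475, 2302, 6077, 948 and 707 in brain-dead animals. Brain-dead animal 3 was highest of its group and control 4 lowest of its own, and the groups overlap. NR4A2 passed without control 4 (-2.90, limma with Benjamini-Hochberg, adjusted p = 0.0186) or brain-dead animal 3 (-2.89, 0.0346), and adjusting for sex and age (-2.865, 0.0495). Of the other NR4A2 probe sets, MmugDNA.23169.1.S1_at had fallen by 1.81 ± 0.45 log2 units (limma with Benjamini-Hochberg, adjusted p = 0.0326), MmugDNA.20818.1.S1_s_at had a change of -1.72 ± 0.76, and the others had 0.80 and 0.19, none of these 3 past the test. Other probe sets of this list rose, with all brain-dead animals above all controls: 2 of the kinase PLK2 (1.89 ± 0.31 and 1.70 ± 0.42, limma with Benjamini-Hochberg, adjusted p = 0.00651 and 0.0324) and 1 of the matrix protein CCN2 (1.05 ± 0.28, 0.0417). Their representatives had -0.016 for PLK2 and 0.27 for CCN2 and did not pass. The probe sets of NR4A2, PLK2 and CCN2 beside the representatives were singled out after their values were seen.

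Partners of ATF3 in the integrated stress response showed no common direction. Of 10 tested none passed on its representative probe set (limma, Benjamini-Hochberg; 3 had an unadjusted p under 0.05), with 5 above 0, 5 below and a median of -0.059 that turned to 0.0088 with median centring. Without control 4, 2 passed (XBP1 and DDIT4), and without control 5, 1 passed (XBP1). XBP1 also passed with quantile normalization (adjusted p = 0.0333, limma with Benjamini-Hochberg), with the filter at the 75th percentile (0.0387) and with array weights (0.0401), and DDIT4 with array weights (0.0425). XBP1, a factor of the unfolded protein response, was at 0.72 ± 0.20 (adjusted p = 0.0542) with groups that did not overlap, and DDIT4, an inhibitor of mTORC1, at -1.23 ± 0.38 (0.0693). The other probe set of XBP1, named after its values were seen, rose by 1.72 ± 0.40 (limma with Benjamini-Hochberg, adjusted p = 0.0269), with overlapping groups. ASNS of the same list, also named after its values were seen, lay below the filter and was not tested. It read 57.7 to 112 in controls and 162 to 693 after brain death, without overlap.

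Among relatives of DUSP1, 1 of 8 tested fell and none rose, where 3.88% of genes fell and 2.90% rose. DUSP16, a phosphatase that acts on JNK, fell by 1.62 ± 0.27 log2 units (limma with Benjamini-Hochberg, adjusted p = 0.00697), from 4270 to 10952 in controls to 1655 to 3201 after brain death. On this representative probe set the groups do not overlap, and its call held under all 23 alternatives. The other DUSP16 probe sets, noted after their values were seen, had overlapping groups. MmugDNA.25825.1.S1_at fell by 1.48 ± 0.38 (limma with Benjamini-Hochberg, adjusted p = 0.0386). MmuSTS.1909.1.S1_at had -0.93 ± 0.37 and did not pass (limma with Benjamini-Hochberg, adjusted p = 0.143). The list median was -0.17.

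Upstream of the immediate early genes, 1 of 16 genes of the MAP kinase cascade and serum response factor rose and none fell, where 2.90% of all genes rose and 3.88% fell. MAP2K1, the kinase MEK1 that activates ERK, rose by 0.90 ± 0.20 (limma with Benjamini-Hochberg, adjusted p = 0.0241). That call ended without control 2 (0.0634), control 3 (0.0519), brain-dead animal 4 (0.0555), brain-dead animal 5 (0.0620) and both animals numbered 1 (0.0659). The list median was 0.25. A probe set of CREM that is not its representative, named after its values were seen, rose by 1.22 ± 0.29 (limma with Benjamini-Hochberg, adjusted p = 0.0283). The representative of CREM had 0.67 ± 0.28 and did not pass (limma with Benjamini-Hochberg, adjusted p = 0.161). Its remaining probe sets had changes from 0.20 to 1.11 and did not pass either.

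Around MYC, 1 of 12 network genes tested fell and none rose, and 3 of 16 growth genes known as MYC targets rose and none fell, where 2.90% of all genes rose and 3.88% fell. MYCL, a MYC paralogue, fell by 1.46 ± 0.32 (limma with Benjamini-Hochberg, adjusted p = 0.0217), and its groups did not overlap. Its call ended without control 2 (0.0570), control 3 (0.0531), brain-dead animal 5 (0.0560) and both animals numbered 1 (0.0590), while MLX, named after its values were seen, passed beside it without control 4 or brain-dead animal 2. The MYC targets that rose were ODC1 of polyamine synthesis (1.21 ± 0.26), spermidine synthase SRM (1.15 ± 0.28) and the nucleolar protein RRP9 (0.95 ± 0.25, limma with Benjamini-Hochberg, adjusted p = 0.0388). On the representative probe sets the change was above 0 for all 16 targets tested, also with quantile normalization and with median centring. Of all 9826 genes tested, 4867 were above 0, with 4974 after quantile normalization and 5395 after median centring. The median change of the 16 targets was 0.73. Probe sets beside the representatives of BOP1 (0.91 ± 0.23), CAD (1.94 ± 0.38) and NOLC1 (1.15 ± 0.21), noted after their values were seen, rose. The representatives of these genes did not pass (limma with Benjamini-Hochberg, adjusted p = 0.110, 0.167 and 0.211). A further NOLC1 probe set (1.11 ± 0.34) did not pass, nor did the other probe sets of NOP56 and DKC1, which were above 0. The other probe set of PES1, noted in the same way, went the other way without passing (-0.62 ± 0.27, limma with Benjamini-Hochberg, adjusted p = 0.181). The number called was 2 with median centring, and went from 5 without brain-dead animal 2 to 0 without brain-dead animal 5, and was 1 without control 1, 2 or 3 or brain-dead animal 4, and 2 without brain-dead animal 1 or 3, while the median stayed between 0.543 and 0.787. MYC itself, as given above, did not pass.

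Of 17 genes that bind AU-rich mRNA or degrade mRNA, 1 rose and none fell (2.90% and 3.88% of all genes), and the median of -0.011 turned to 0.057 with median centring. The gene that rose was ZC3H12A (Regnase-1), an endonuclease that cleaves cytokine mRNAs, with a rise of 1.54 ± 0.24 (limma with Benjamini-Hochberg, adjusted p = 0.00530). Its signal was 440, 599, 902, 496 and 562 in controls 1 to 5 and 2255, 1257, 1638, 1433 and 2048 in brain-dead animals, with no overlap. The call held under all 23 alternatives. The paralogues of ZFP36, named for that reason outside the rule, did not pass, with a change of -0.27 ± 0.22 for ZFP36L1 and -0.37 ± 0.23 for ZFP36L2 (limma with Benjamini-Hochberg, adjusted p = 0.486 and 0.356).

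Of mRNAs known as ZFP36 targets, 6 of 11 tested rose and none fell, where 2.90% of all genes rose and 3.88% fell, with a median log2 change of 1.90. This list was chosen with earlier results on its cytokines known, so its count is no independent evidence of a direction. BIRC3, an inhibitor of apoptosis, ranged from 1161 to 1808 in controls and from 5329 to 22007 after brain death on its representative probe set. Its other probe sets, noted after their values were seen, disagreed. MmugDNA.6382.1.S1_at rose by 3.14 ± 0.35, while MmugDNA.26265.1.S1_at had 0.37 ± 0.32 and did not pass (limma with Benjamini-Hochberg, adjusted p = 0.00144 and 0.525). The kinase PIM1 ranged from 1733 to 2921 and from 5229 to 10170, and the feedback inhibitor SOCS3 from 288 to 458 and from 657 to 2917. IL1B, CCL2 and IL6 were the others that rose; these and the genes named after them here were chosen after their values were seen. The call of IL6 (2.36 ± 0.53, adjusted p = 0.0226) ended without control 1, control 2, brain-dead animal 3, brain-dead animal 5 or both animals numbered 1, also when adjusting for sex and age, at adjusted p between 0.0526 and 0.0588 (limma, Benjamini-Hochberg). The other IL6 probe set had a change of 1.58 ± 0.46 and did not pass (limma with Benjamini-Hochberg, adjusted p = 0.0594). The summed signal of neutrophil markers reached higher after brain death and overlapped between the groups, over 4 probe sets at 533 to 897 in controls and 661 to 1281 after brain death, none at 0. S100A12, a calgranulin of neutrophils that lay below the filter, read 21.3 to 78.8 in controls and 103 to 343 after brain death, without overlap. CSF3R (0.76 ± 0.34) and ELANE (-0.38 ± 0.40) did not pass. MPO, also below the filter, was lower on average after brain death and overlapped, at 122 to 186 in controls and 62.3 to 172 after brain death. Neutrophil markers thus went in both directions, and the part of neutrophils in these rises was not tested. TNF, the mRNA on which ZFP36 is best known to act, lay below the filter on all 10 arrays, with a signal of 140 ± 56.4 in controls and 115 ± 84.9 after brain death (SD, n = 5). IL10 (-0.26 ± 0.34) and NFKBIZ (-0.19 ± 0.23) had changes below 0 on their representative probe sets that did not pass. The other IL10 probe set had 0.25 ± 0.53 and did not pass either.

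**Figure D5:**
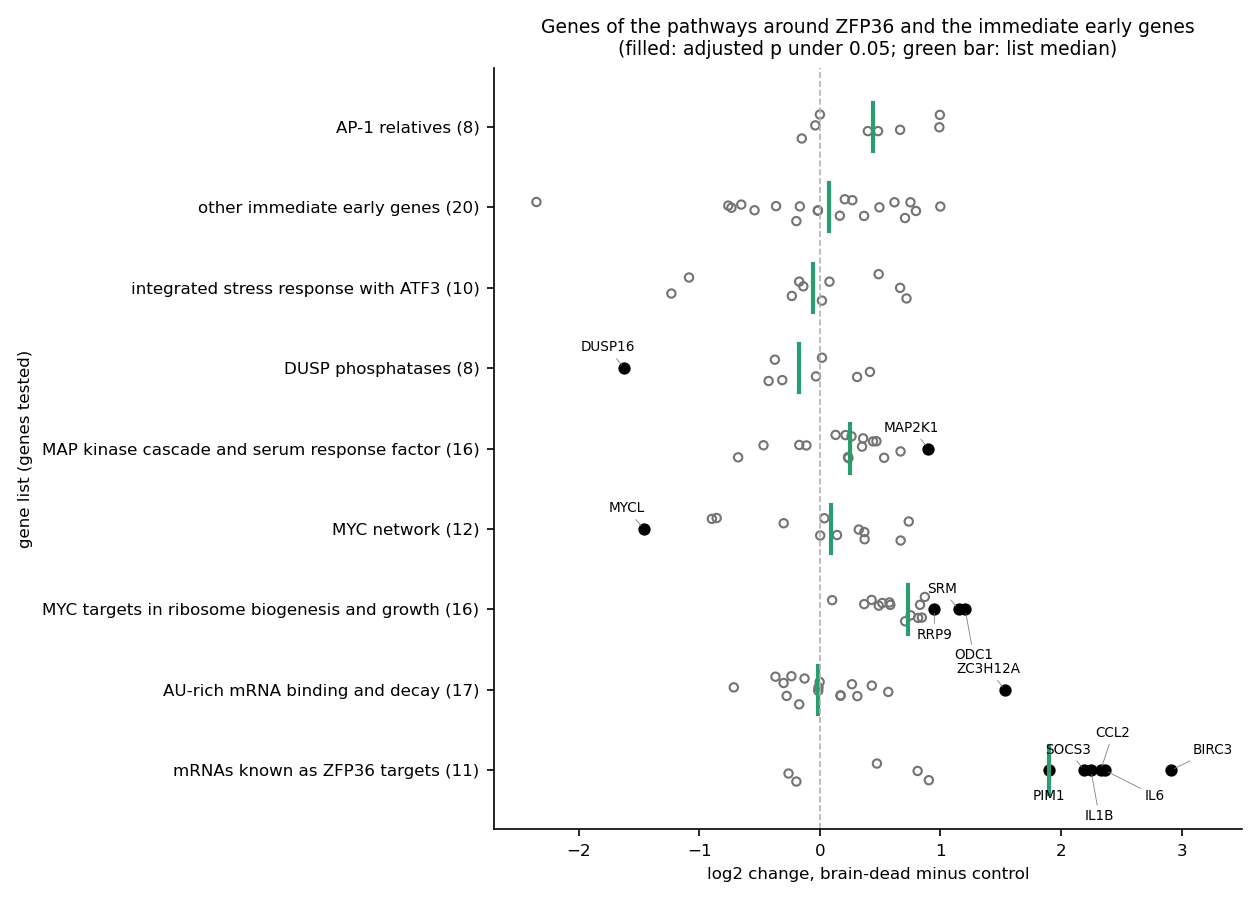
Log2 change (brain-dead minus control) of every gene tested in 9 lists around ZFP36 and the immediate early genes; filled points pass an adjusted p under 0.05, green bars are list medians. Among AU-rich mRNA genes ZC3H12A stands at 1.54, and 6 of 11 mRNAs known as ZFP36 targets are filled on the right.

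Over the 10 arrays, the genes most like ZFP36 by Pearson correlation of log2 signal, of 9819 other genes compared, were MEGF9 (r = 0.97), MAPK8IP1 (0.97), UNG (0.96), SERINC2 (0.96) and STARD10 (0.96). They were picked as the highest of many, and the arrays share 2 groups that differ, so no p is given. MAPK8IP1, a scaffold of the JNK pathway, had 2963, 2690, 5799, 654 and 2298 in controls 1 to 5 and 694, 603, 768, 616 and 416 in brain-dead animals. STARD10, a lipid transfer protein, had 2401 in control 4 and 5924 to 11165 in the other controls, against 1490 to 3458 after brain death. In both, control 4 lay at the level of the brain-dead animals, as it nearly did in ZFP36. That likeness comes with picking genes by their correlation with ZFP36 and is no separate observation. Because the groups do not overlap in ZFP36, a lower level after brain death follows from this choice, and no test of the groups is given for these genes.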

How the data were processed

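The authors deposited a linear MAS5 signal intensity for each probe set in each liver, per the submitters' processing notes (MAS5 version: not given in the sources used here). All arrays share the same trimmed mean. Signals were taken as log2 without a pseudocount. Of 52865 probe sets, 99 control probe sets were left out, and those above their array's median on at least 5 of 10 arrays were tested (26653). Such a filter keeps a probe set that is high in 1 group only. Names came from the platform annotation, with current symbols through gene IDs of the reference genes (24629 of 24969 probe sets with 1 symbol matched).

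Brain-dead and control animals were compared with limma 3.58.1 in R 4.3.3 (lmFit, eBayes with trend, group alone), adjusting p over every probe set tested by Benjamini-Hochberg, with a threshold of 0.05. The fit was tested on simulated data. A gene was represented by its probe set with the highest mean, and overlap and permutation values used the same signals. Input was read by the R package data.table, version 1.17.8, and figures drawn with matplotlib 3.10.9.

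Named were all members, up to 3 genes per list and direction past the threshold (otherwise up to 2 with the lowest adjusted p), and the 5 genes most like ZFP36; others are said to be chosen later. Members and lists were chosen with earlier results of these data known. Same-numbered animals are not paired in the labels, and their deviations correlated by over 0.1 in 3 of 5 pairs. Alternatives were normalization, centring, pseudocounts of 16 and 64, other filters, sex and age, a replicate block, other eBayes settings, array weights, the mean of a gene's probe sets, an exact permutation test and leaving out each animal.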

Additional observations from a re-analysis of the deposited data

Results flagged for a closer look

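FOS in brain-dead animal 3, at a signal of 37631, stood apart from the other 4 brain-dead animals, of which the next highest was at 5607. Its gap to that animal was 0.814 of the group's range on the log2 scale, above the critical value of 0.71 for 5 samples. Of 20 groups of 5 examined for the member probe sets this was 1, and chance alone gives about 1 in 20. No cause was tested.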

How the results depend on the processing

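The 23 or 24 alternatives kept the direction of ZFP36, JUNB, IER2, FOS, DUSP1, MYC and ATF3 probe set 3. The change of ZFP36 ranged from -2.56 to -1.94 (limma, Benjamini-Hochberg adjusted p 0.000869 to 0.0512). It was not tested with a filter at the 75th percentile, which it did not pass, so 0 member probe sets and 0 genes were then called. Without both arrays numbered 1, an alternative chosen after seeing the data, 0 were called as well. Leaving out single animals gave 1 to 2 probe sets and 1 to 2 genes. ATF3 probe set 1 turned to 0.039 and 0.051 without controls 3 and 5 (range without single animals -0.61 to 0.051). ATF3 probe set 2 turned to 0.010 with quantile normalization, 0.027 with median centring, 0.012 and 0.036 without controls 3 and 5 and 0.063 without brain-dead animal 3 (range -0.16 to 0.063). Over all probe sets 1627 were called, 1056 without a filter, 1035 with sex and age, 674 without both arrays numbered 1 and 660 to 2289 without single animals. The replicate block gave 3013 over all probe sets and changed no call among the members (ZFP36 adjusted p = 0.00719, limma, Benjamini-Hochberg), while NR4A2, XBP1, DDIT4, MAFF and ATF4 passed with it; the pairs of same-numbered animals correlated by 0.38, 0.0643, 0.128, 0.0889 and 0.128. The cause of these differences was not tested. With 5 arrays per group, changes of genes as variable as FOS are measured with wide intervals.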
